A study of Mus musculus with 12 samples.

Results

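AP-1 is a dimeric transcription factor built from FOS-family and JUN-family proteins, and ATF3 joins the same dimers. The 8 genes described here are Fos, Fosb, Fosl1 and Fosl2 of the FOS family, Jun, Junb and Jund of the JUN family, and Atf3. They were taken by symbol from a table of read counts for 24421 genes, in which all 8 were present. The libraries were total RNA from mouse embryonic stem (mES) cells of a C57BL/6J line (strain B6 in the labels) that carry Brg1 dTag knock in, an FKBP12 F36V degron fused to BRG1. BRG1, encoded by Smarca4, is the main ATPase of the BAF (SWI/SNF) chromatin remodelling complex in these cells. The degrader dTAG13 was given for 24 h at 0, 0.3, 1, 3, 10 or 100 nM, with 2 libraries at each dose and 12 in all. The cells at 0 nM carry the knock in too, and no library of unmodified cells was used here.

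The knock in cells came from colonies grown from single cells, so clone and genotype cannot be told apart. All cultures were kept in 2i/LIF medium, and 2i holds an inhibitor of the kinase MEK, which acts upstream of FOS induction, so the levels below are those of cells under MEK inhibition. The labels number the 0, 1, 10 and 100 nM libraries in one series of 8 and the 0.3 and 3 nM libraries in another series of 4, and do not say whether the numbering follows preparation or sequencing. A difference of 0.3 or 3 nM from 0 nM and any difference between these numbering series cannot be told apart, whereas 3 against 0.3 nM, and 1, 10 and 100 nM against 0 nM, lie within a series. The study describes its expression data as coming from independent experiments, and the labels do not give the culture behind each library. The p-values between doses rest on the spread between the 2 libraries of a dose, pooled over the 6 doses. For the dose trend the spread also takes in departures of the dose means from a straight line. Total counts ranged from 4663484 to 6375582 with a median of 5956670, the lowest being 3 nM replicate 1, in which the ribosomal RNA gene Rn45s took 10.5% of counts against up to 19.4% elsewhere. Smarca4 RNA does not check a loss of the protein, and its level was 64.0 and 63.2 RPKM (counts scaled by exon length and library size) at 0 nM and 71.0 and 70.9 RPKM at 100 nM. All 8 mES cell markers on the list, Pou5f1 and Nanog among them, passed the filter on low values. Their summed level, which the most abundant markers set, went from 2050 and 2070 RPKM at 0 nM to 1820 and 1860 RPKM at 100 nM. Their median log2 fold change at 100 nM was -0.03, and over the doses 3 had a rising and 3 a falling trend. Of these 8, 1 was called lower at 100 nM, Tfcp2l1 at -0.64 on the log2 scale (edgeR adjusted p = 1.47e-10), and 0 higher, with Nanog at 0.52, short of a 1.5-fold change (edgeR adjusted p = 2.05e-08). None of 8 fibroblast markers passed the filter, at 0.704 to 2.89 RPKM summed. The summed trophectoderm markers went from 13.1 and 16 RPKM at 0 nM to 22.2 and 22.6 RPKM at 100 nM. Of 6 markers 4 were tested, with Cdx2 and Tfap2c called higher and 0 called lower. The log2 fold changes of these 4 ran from -1.23 to 3.1, so the list did not move in 1 direction. Elf5 and Hand1 had 2 counts or fewer in the 0 and 100 nM libraries. Of 8 primitive endoderm markers 1 was tested, Sparc, which made up most of a sum that went from 102 and 121 RPKM to 35.2 and 35.6 RPKM. In the other direction, Pdgfra of the same list, below the filter, rose from 3 and 6 to 28 and 20 counts between the same doses, being called higher in a fit of all genes with a count (2.36, edgeR adjusted p = 0.000414). The part of these lists in the results below was not tested.

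FOS, JUN and ATF3 proteins share a basic leucine zipper (bZIP), with which they pair and bind DNA. JUN proteins can pair with each other, FOS proteins bind DNA stably only with a JUN partner, and JUNB and JUND are often weaker activators than JUN. Most of the genes, with Jund as the usual exception, are known as immediate early genes, induced within minutes by growth factor and stress kinases and kept low in resting cells, and AP-1 proteins are known to recruit BAF to enhancers. How their own RNA levels follow the dose of BAF is the question the dTAG13 series puts to these genes.

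Of 8 members, 7 had an entry among RefSeq promoter sequences of the GRCm38.p6 build (250 bases before to 50 after the start), the exception being Fosl1. Each window was searched on both strands for the AP-1 site TRE (TGAGTCA or TGACTCA), the CRE (TGACGTCA), the CArG box bound by SRF, and TATAA. No member window held a TRE, a CRE or a CArG box, against 5.2%, 1.79% and 1.63% of all 32851 windows, and this says only that these letters are not in these windows. TATAA was in 2 member windows, those of Junb and Fos, and in 24.9% of all windows. Both are shown, since Junb is the member whose level fell and Fos holds the same motif and was not called. The capitals mark TATAA in the windows chr8:84978699-84978998 (minus strand) and chr12:85473640-85473939 (plus strand), each printed 5′ to 3′ in the direction of the gene.
Junb: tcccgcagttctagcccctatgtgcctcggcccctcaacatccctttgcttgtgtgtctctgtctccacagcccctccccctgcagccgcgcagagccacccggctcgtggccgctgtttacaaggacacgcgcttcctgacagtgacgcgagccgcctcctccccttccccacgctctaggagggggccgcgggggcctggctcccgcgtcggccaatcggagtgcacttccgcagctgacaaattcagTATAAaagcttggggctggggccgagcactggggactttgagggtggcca
Fos: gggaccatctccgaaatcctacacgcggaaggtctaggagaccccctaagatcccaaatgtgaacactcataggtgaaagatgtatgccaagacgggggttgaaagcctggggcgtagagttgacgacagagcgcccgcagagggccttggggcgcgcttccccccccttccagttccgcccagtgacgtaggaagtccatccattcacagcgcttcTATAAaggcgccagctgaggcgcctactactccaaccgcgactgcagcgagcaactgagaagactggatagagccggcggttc
In Junb the motif begins at position 1 of the RefSeq start, and GENCODE places the Junb start 30 bases further downstream. In Fos the motif begins at position -33. The Junb window was 65.3% G or C with 21 CG pairs, and the Fos window 58.7% with 20, against medians of 52.7% and 7 over all windows. The Jund window had 46.7% and 3 CG pairs, but GENCODE starts Jund 1210 bases downstream of the start used there, so that window may not be the promoter in use.

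Jund was the most abundant member in all 12 libraries, with a mean of 41.7 RPKM over all libraries, above 85.4% of the 11378 genes tested. Junb followed at 12.6 RPKM, above 58.8% of tested genes, and the lowest Jund library (34.4 RPKM) stood above the highest Junb library (15.5 RPKM). Jun (1.75 RPKM) and Fos (1.35 RPKM) were far below Junb, near the lower end of the tested genes at the 10.7 and 5.69 percentiles. The lowest Junb library (9.28 RPKM) lay above the highest Jun library (2.42 RPKM). Jun exceeded Fos in 9 of 12 libraries, and their ranges overlapped. Atf3 averaged 0.659 RPKM, Fosl1 0.268, Fosl2 0.201 and Fosb 0.169. Fos was above Atf3 in 11 of 12 libraries and Atf3 above Fosl1 in 12 of 12, whereas the ranges of neighbours overlapped throughout these lower ranks, with Fosl1 above Fosl2 in 8 and Fosl2 above Fosb in 7 libraries. The test was run where the average over the 12 libraries reached 1 RPKM, which 4 of 8 members did, and the other 4 were tested in a fit of all 23204 genes with a count.

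**Figure D1:**
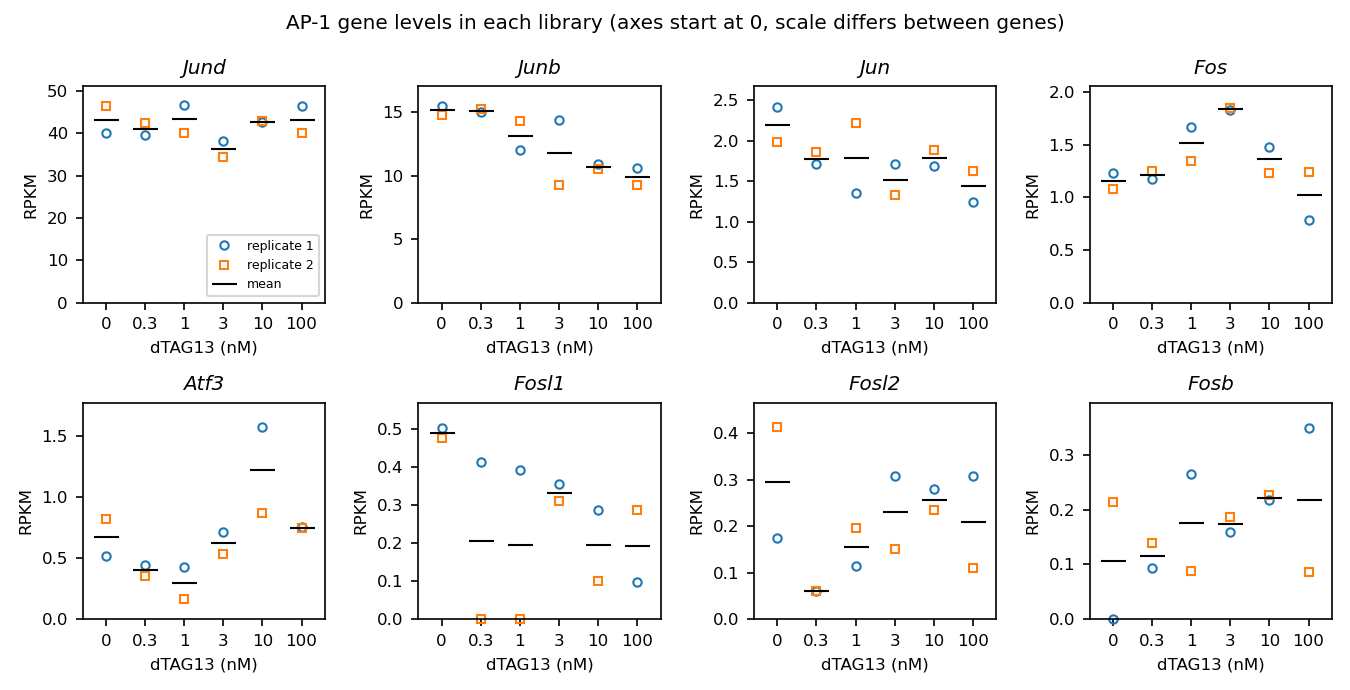
Level of each AP-1 gene in RPKM (y axis, starting at 0, with its own scale for each gene) in each of 12 libraries against the dTAG13 dose in nM (x axis, doses evenly spaced). Circles are replicate 1, squares replicate 2 and bars the mean of both. Junb averages 15.2 RPKM in the untreated and 9.93 RPKM in the 100 nM libraries, and Jund stays between 34.4 and 46.8 RPKM.

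A gene was called where edgeR's quasi-likelihood test gave a Benjamini-Hochberg adjusted p under 0.05 over all genes tested and the fold exceeded 1.5, which is 0.58 on the log2 scale. Of 8 members, 1 was called at 100 nM against 0 nM, Junb, which was lower, while 6.83% of all tested genes were called lower and 4.36% higher in that comparison, 11.2% together, and 7.85% of all genes with a count. At that background the count of 1 in 8 is not a result about the members as a group. No member was called at 0.3, 1, 3 or 10 nM against 0 nM, where 0.0176%, 0.949%, 3.95% and 7.92% of the 11378 tested genes were, and 0.0474%, 0.621%, 2.37% and 4.84% of all genes with a count, the fit used for the 4 low members. At an unadjusted p under 0.05 the counts in these 4 comparisons were 1, 0, 2 and 1 members. The share of all genes at that threshold was not computed, so these counts say nothing about the members as a group. The edgeR likelihood ratio test and the DESeq2 Wald test also called 0 members in each of these comparisons. The median log2 fold change at 100 nM was -0.4 over the 4 members that passed the filter and -0.001 over all tested genes. Over all 8 members it was -0.33, with 4 of these values from few counts in the other fit. Medians of so few genes were not tested and describe these members only.

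Junb encodes a JUN protein that is induced by growth factors and is known for restraining proliferation in several lineages. It lies at chr8:84976909-84978748 on the minus strand (mm10), and its exonic length of 1840 bases equals its span, so it has no intron. The Junb counts at 0 nM were 167 and 168, or 15.5 and 14.8 RPKM. They were 157 and 161 (15 and 15.3 RPKM) at 0.3 nM and 132 and 160 (12 and 14.3 RPKM) at 1 nM. At 3 nM they were 131 and 97, or 14.4 and 9.28 RPKM. At 0.3 nM both libraries lay within or near the range at 0 nM, and at 1 nM and 3 nM the 2 libraries of a dose lay far apart. At 10 nM the counts were 123 and 113 (10.9 and 10.5 RPKM) and at 100 nM 118 and 105 (10.6 and 9.28 RPKM). All 4 libraries at 10 and 100 nM lay below all 4 libraries at 0 and 0.3 nM, with no overlap.

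Relative to the mean at 0 nM, Junb averaged 99.8% after 0.3 nM, 86.7% after 1 nM, 78.0% after 3 nM, 70.8% after 10 nM and 65.5% after 100 nM. The log2 fold change at 100 nM was -0.61 (SE 0.16, 95% interval -0.94 to -0.28, edgeR adjusted p = 0.0067), a 1.53-fold lower level just past the fold minimum. At 10 nM it was -0.50 (interval -0.83 to -0.17, edgeR adjusted p = 0.0311), past the p threshold and short of the fold minimum. The 100 nM call did not hold without 0 nM replicate 1 (-0.57, edgeR adjusted p = 0.0502) or without 100 nM replicate 2 (-0.52, edgeR adjusted p = 0.0911), and with no normalization factors the change was -0.57, below the fold minimum (edgeR adjusted p = 0.0193). Over all 23 alternatives the value ran from -0.71 to -0.52 and the edgeR or DESeq2 adjusted p from 0.00133 to 0.0911. At 3 nM the change was -0.37 (interval -0.70 to -0.04, edgeR adjusted p = 0.17), and without 3 nM replicate 1, the library with the fewest counts, it was -0.69 and called (edgeR adjusted p = 0.0166), whereas without replicate 2 it was -0.08 (edgeR adjusted p = 0.86). Within the numbering series that holds both, 3 against 0.3 nM gave -0.37 (edgeR adjusted p = 0.214), and -0.69 without 3 nM replicate 1 (edgeR adjusted p = 0.0257).

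Over the 6 doses in order, each dose counted as 1 step, Junb fell by 0.13 per step on the log2 scale (interval -0.19 to -0.08, edgeR adjusted p = 0.000421). It was the only 1 of 8 members with a trend at an adjusted p under 0.05, while 29.3% of all tested genes had a trend, 15.8% falling and 13.4% rising, as did 19.6% of all genes with a count. Within the 8 libraries of 0, 1, 10 and 100 nM alone the slope was -0.12 (edgeR adjusted p = 0.00141), and without both 3 nM libraries it was -0.13 (edgeR adjusted p = 0.000141). Between the treated doses no member was called at 3 against 0.3 nM, 10 against 1 nM or 100 against 10 nM, where 2%, 2.54% and 0.958% of tested genes and 1.31%, 1.59% and 0.56% of all genes with a count were called. At an unadjusted p under 0.05 there were 2, 1 and 0 members, again with no share of all genes computed. The edgeR likelihood ratio test called 1 member at 10 against 1 nM, Atf3, described below. The Junb step from 10 to 100 nM was -0.11 (interval -0.46 to 0.24, edgeR adjusted p = 0.866).

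**Figure D2:**
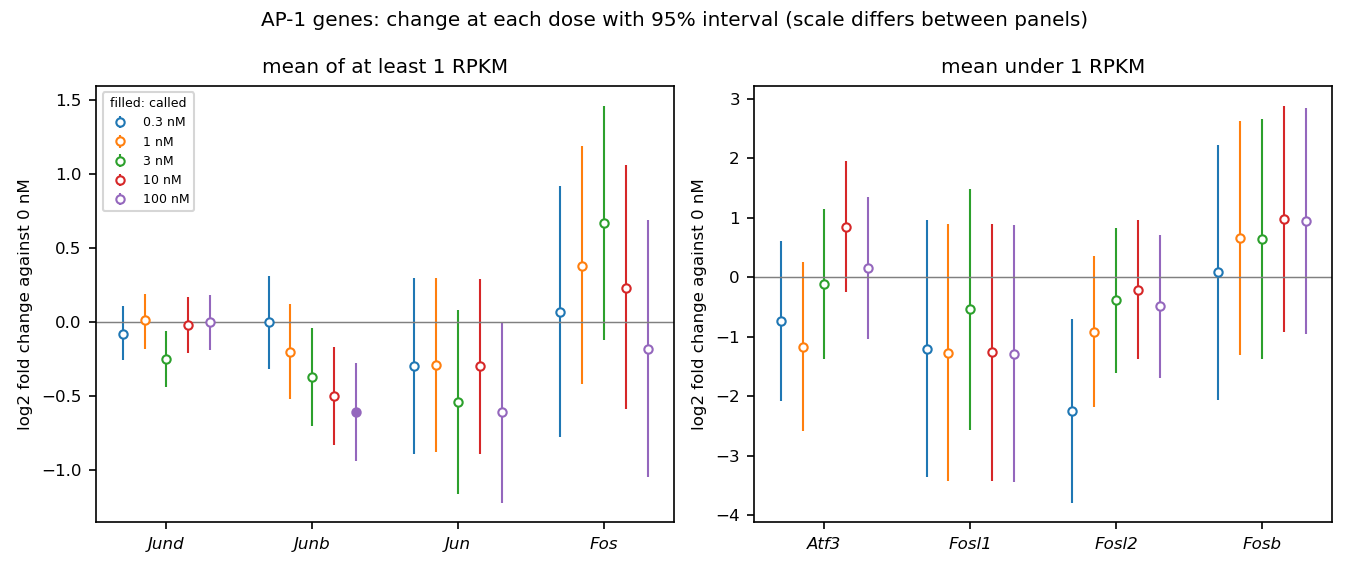
Log2 fold change of each AP-1 gene against 0 nM (y axis) at 5 doses of dTAG13 (colours), with 95% intervals from edgeR. The left panel holds the 4 genes that reached 1 RPKM on average and the right panel the 4 below it, on a wider scale. The filled point is the 1 call, Junb at 100 nM (-0.61), and the Jund interval at 100 nM runs from -0.19 to 0.18.

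Jund encodes the JUN protein that is usually expressed steadily rather than induced. It lies at chr8:70697739-70700616 on the plus strand and has no intron, its exonic length of 2878 bases being its whole span. The Jund counts were 675 and 824 without dTAG13, 649 and 701 with 0.3 nM, 807 and 703 with 1 nM, 546 and 563 with 3 nM, 749 and 720 with 10 nM, and 810 and 709 with 100 nM. The 100 nM and 0 nM libraries covered the same range, 40.1 to 46.4 RPKM in both. The fitted change at 100 nM was 0.00 with an interval of -0.19 to 0.18 (edgeR adjusted p = 0.997), so a change beyond 1.5-fold in either direction lies outside the interval. The lowest levels were those at 3 nM, 38.2 and 34.4 RPKM, against a lowest level of 39.6 RPKM in the other 10 libraries. That difference was -0.25 against 0 nM (interval -0.44 to -0.06, edgeR adjusted p = 0.0926) and -0.18 against 0.3 nM in the same numbering series (edgeR adjusted p = 0.317), and neither was called.

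Jun encodes c-JUN, the strongest activator of the JUN family and a target of JNK kinases. It lies at chr4:95049036-95052222 on the minus strand and has no intron. The Jun counts were 45 and 39 without dTAG13, 31 and 34 with 0.3 nM, 26 and 43 with 1 nM, 27 and 24 with 3 nM, 33 and 35 with 10 nM, and 24 and 32 with 100 nM. Both libraries at 100 nM (1.24 and 1.63 RPKM) lay below both at 0 nM (2.42 and 1.98 RPKM), but 1 nM replicate 2 stood at 2.22 RPKM, inside the range at 0 nM. The log2 fold change at 100 nM was -0.61, the same size as that of Junb, with an interval of -1.22 to 0.00 (edgeR adjusted p = 0.147). At these counts an estimate of the size seen for Junb was not called for Jun. The slope over the doses was -0.09 per step (interval -0.19 to 0.00, edgeR adjusted p = 0.145).

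Summed over Jun, Junb and Jund, the JUN family stood at 45.0 to 63.1 RPKM, and Jund made up 69.1% to 79.7% of it. Junb made up 26.7% and 23.4% at 0 nM and 18.2% and 18.2% at 100 nM. Jun made up 2.13% to 4.16%. The ratio of Junb to Jund counts within a library does not depend on the normalization. There were 24.7 and 20.4 Junb counts per 100 Jund counts without dTAG13, 24.2 and 23 with 0.3 nM, 16.4 and 22.8 with 1 nM and 24 and 17.2 with 3 nM. The ratio was 16.4 and 15.7 with 10 nM and 14.6 and 14.8 with 100 nM. The 10 and 100 nM libraries all lay below the 0 and 0.3 nM libraries, and at 1 and 3 nM the 2 libraries of a dose lay far apart. The ratio is given as a description with no test, since it repeats the Junb values.

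**Figure D3:**
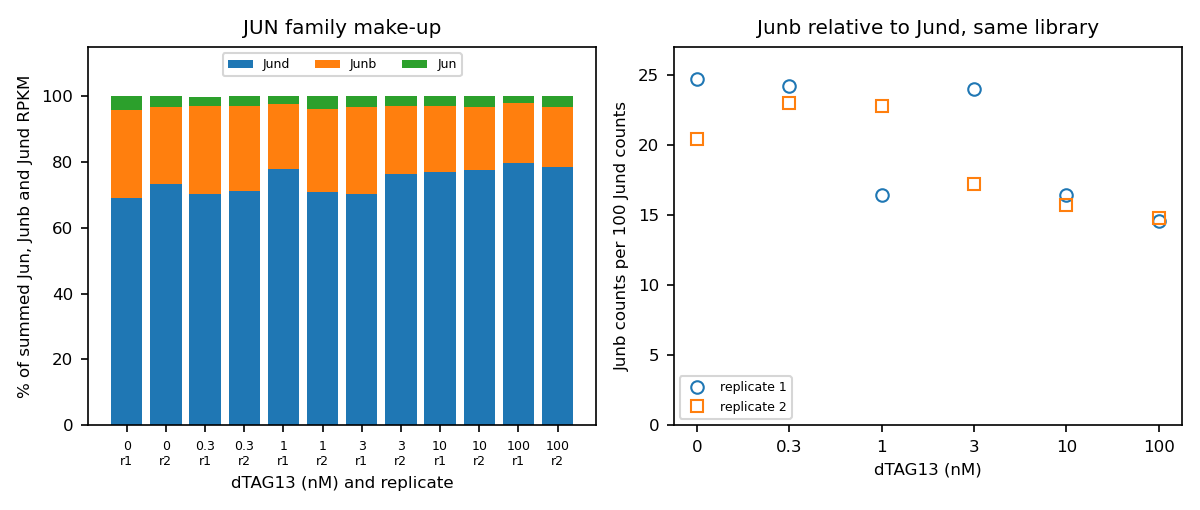
Left, percent of the summed RPKM of Jun, Junb and Jund that each gene made up (stacked bars) in each library, labelled by dose in nM and replicate. Right, Junb counts per 100 Jund counts in the same library against the dose, with 24.7 and 20.4 in the untreated and 14.6 and 14.8 in the 100 nM libraries.

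Fos encodes c-FOS, the best known immediate early protein, which forms AP-1 with a JUN partner. It lies at chr12:85473901-85477270 on the plus strand, with 2094 exonic bases. The Fos counts were 15 and 14 without dTAG13, 14 and 15 with 0.3 nM, 21 and 17 with 1 nM, 19 and 22 with 3 nM, 19 and 15 with 10 nM, and 10 and 16 with 100 nM. The 2 libraries at 3 nM, 1.83 and 1.85 RPKM, were the highest of all 12, and 100 nM replicate 1, at 0.787 RPKM, was the lowest. Against 0 nM the log2 fold change was 0.67 at 3 nM (interval -0.12 to 1.46, edgeR adjusted p = 0.331) and -0.18 at 100 nM (interval -1.05 to 0.69, edgeR adjusted p = 0.808). Within its numbering series 3 against 0.3 nM gave 0.60 (interval -0.20 to 1.39, edgeR adjusted p = 0.44). None of these differences was called, and any change within these intervals remains compatible with the counts. The slope over the doses was 0.00 per step (interval -0.14 to 0.14, edgeR adjusted p = 0.997).

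Fosb, Fosl1 (FRA1) and Fosl2 (FRA2) encode the other FOS proteins, of which FRA1 and FRA2 lack a strong activation domain. Fosb (chr7:19302696-19310045, minus strand) had 0 to 8 counts in a library and 45 in all 12 libraries. Fosl1 (chr19:5447698-5455938, plus strand) had 0 to 5 counts in a library and 32 in all. Fosl2 (chr5:32136472-32157839, plus strand) had 2 to 15 counts and 83 in all. A gene on the opposite strand, Ccdc85b, overlaps Fosl1, and the counting, which left out reads that fall on more than 1 gene and did not use strand, cannot place reads in the shared stretch.

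At 100 nM against 0 nM, Fosb had 10 against 5 counts summed over the 2 libraries, Fosl1 4 against 10 and Fosl2 15 against 21. Scaled for library size these are 197%, 39.4% and 70.3% of the 0 nM level, with exact conditional intervals of 61.3% to 734%, 9.01% to 136% and 33.7% to 143%, which cover counting error only. All 3 intervals include no change. The Fosl1 counts were 5 and 5 without dTAG13, 4 and 0 with 0.3 nM, 4 and 0 with 1 nM, 3 and 3 with 3 nM, 3 and 1 with 10 nM, and 1 and 3 with 100 nM. Every treated library was below both 0 nM libraries, at 0.502 and 0.475 RPKM, and no difference passed the test (edgeR adjusted p = 0.514 at 100 nM, 0.924 at 3 nM). Fosl2 had 6 and 15 counts without dTAG13 and 2 and 2 with 0.3 nM, and this was not called (log2 fold change -2.25, edgeR adjusted p = 0.428).

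Atf3 encodes a stress-induced bZIP protein that acts mostly as a repressor and pairs with JUN proteins. It lies at chr1:191170297-191183333 on the minus strand, with 1976 exonic bases. The Atf3 counts were 6 and 10 without dTAG13, 5 and 4 with 0.3 nM, 5 and 2 with 1 nM, 7 and 6 with 3 nM, 19 and 10 with 10 nM, and 9 and 9 with 100 nM. The 10 nM libraries, at 1.57 and 0.867 RPKM, were the highest of all 12, and 1 nM replicate 2, at 0.166 RPKM, was the lowest. Against 0 nM the log2 fold change was 0.85 at 10 nM (interval -0.25 to 1.96, edgeR adjusted p = 0.473) and 0.15 at 100 nM (interval -1.04 to 1.34, edgeR adjusted p = 0.933). From 1 to 10 nM it was 2.02 (interval 0.74 to 3.31, edgeR adjusted p = 0.0567). Under the likelihood ratio test that value was called (edgeR adjusted p = 0.0443), and without 1 nM replicate 2 or 10 nM replicate 1 it was 1.51 (edgeR adjusted p = 0.509) or 1.53 (edgeR adjusted p = 0.491).

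Summed over Fos, Fosb, Fosl1 and Fosl2, the FOS family stood at 1.45 to 2.65 RPKM. The JUN family sum was 18 to 41.2 times the FOS family sum within a library, with a median of 30.0. In every library JUN RNA was thus far in excess of FOS RNA on the per length scale. At 0 nM the ratio was 30.5 and 28.9 and at 100 nM 37.7 and 29.5, and the lowest ratios were those at 3 nM, 20.5 and 18.

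The genes with the most similar pattern over the 12 libraries were found for the 4 members with a mean of at least 1 RPKM, by Pearson's r of log2(RPKM + 0.1) against each tested gene. For Junb these were Ctnnb1 (r = 0.968), Rpl15 (0.95) and Ctbp2 (0.94). Their log2 fold changes at 100 nM were -0.20, -0.22 and -0.24, against -0.61 for Junb. For Jun they were Galk2 (0.9), Zscan2 (0.867) and Hspa2 (0.826), and for Fos Acadsb (0.905), Rps6kb2 (0.882) and Sept10 (0.88). For Jund they were Prrc2a (0.851), Mir106b (0.808) and Pou6f1 (0.798). All genes are read from the same libraries, with their doses, numbering and depth, and each is the best of 11378 genes, so these values describe the libraries only.

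Other genes of the pathway were taken from lists of the upstream kinases, partner factors and targets. Of 12 further bZIP partners of AP-1, such as Jdp2, Batf and the Maf genes, 5 passed the filter on low values and 0 were called at 100 nM. Their log2 fold changes ran from 0.01 (Atf2) to 0.58 (Mafk). Of 9 ATF and CREB genes outside AP-1 all 9 were tested and 0 called, with Atf6 (-0.40) and Atf6b (-0.37) the lowest. The serum response factor gene Srf and its cofactors drive Fos and other immediate early genes, and 5 of 6 were tested and 0 called, with Srf itself at -0.26 (edgeR adjusted p = 0.0731). Of 16 MAP kinase genes 15 were tested and 0 called, from -0.48 for Map2k3 to 0.49 for Mapk9, which encodes JNK2. At the lower doses against 0 nM these 4 lists held 1 call, at 10 nM, which is Map3k1, a kinase gene upstream of JNK (-0.62, edgeR adjusted p = 4.61e-05, and -0.36 at 100 nM). A dose trend was found for 1, 1, 1 and 4 genes of the lists, the 4 MAP kinase genes being 2 rising and 2 falling, against 29.3% of all tested genes. With no fold minimum the counts at 100 nM at an adjusted p under 0.05 were 0, 3, 0 and 4 in these lists, against 23.4% of all tested genes, and the DESeq2 and likelihood ratio tests with the fold minimum called none in any of them. Of 8 heat shock genes, a sign of stress at harvest, 7 were tested and 0 called, and 1 had an adjusted p under 0.05, Dnaja1 at -0.28. The background in this comparison is 11.2% of tested genes called in either direction.

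Of 19 immediate early genes other than the members, 12 were tested, with a median log2 fold change of -0.52 at 100 nM. Of these, 5 were called lower and 0 higher, beside 6.83% and 4.36% of all tested genes. This list was also chosen with earlier results of these data known, so its counts are no measure of an excess over those shares. The count higher was 1 in place of 0 under the DESeq2 Wald test, with DESeq2 size factors, with upper quartile factors and with no normalization factors, and 0 to 2 with 1 library left out, while 5 or 6 were lower in all of these. Arc, which encodes a synaptic cytoskeletal protein, fell from 84 and 92 counts to 15 and 15 (log2 fold change -2.57, SE 0.26, edgeR adjusted p = 3.82e-08). Dusp1, which encodes the phosphatase that switches off MAP kinases, fell from 185 and 202 counts to 96 and 96 (-1.03, edgeR adjusted p = 1.49e-05). Dusp1 was also called lower at 1 nM (-0.6, edgeR adjusted p = 0.028), where no member was called. Cyr61, a secreted matrix protein gene, fell from 144 and 189 counts to 78 and 92 (-0.99, edgeR adjusted p = 4.85e-05). Btg2, an antiproliferative gene, fell from 227 and 269 counts to 138 and 135 (-0.88, edgeR adjusted p = 1.93e-05). In each of these 4 genes both libraries at 100 nM lay below both at 0 nM. Klf6 was the fifth called lower, at -0.74. Chosen after their values were seen, Ier2 (0.54, edgeR adjusted p = 2.34e-05) and Klf10 (0.58, edgeR adjusted p = 2.26e-05) were higher by less than the fold minimum. Egr1, the usual companion of Fos, had a mean under 1 RPKM, with 6 and 8 counts in the untreated and 6 and 9 in the 100 nM libraries.

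Of 17 textbook AP-1 target genes 9 were tested, with a median of -0.25. At 100 nM 4 were called lower and 1 higher, beside 6.83% and 4.36% of all tested genes. The targets were listed with earlier results of these data known, so these counts cannot be read as an excess over those shares. Emp1, a membrane protein gene, went from 85 and 117 counts to 2 and 3, a ratio of 41.1 (exact conditional interval 17.3 to 128, counting error only), and the fit placed it past the threshold (edgeR adjusted p = 1.22e-10). It was already called lower at 1 nM (-2.3, edgeR adjusted p = 6.77e-06), where no member was called, and stood at -5.4 at 3 nM. Plaur, which encodes the urokinase receptor, fell from 66 and 83 counts to 24 and 36 (-1.33, edgeR adjusted p = 0.000374). Spp1, which encodes osteopontin, fell from 3361 and 3413 counts to 2112 and 2185 (-0.68, edgeR adjusted p = 9.22e-10). Hbegf, which encodes a ligand of the EGF receptor, was the other gene called lower, with 69 and 71 counts without dTAG13 and 44 and 50 with 100 nM (-0.60, edgeR adjusted p = 0.0246). At the lower doses Hbegf was not called and lay above 0 nM, at 0.53 with 0.3 nM, 0.47 with 1 nM, 0.54 with 3 nM (edgeR adjusted p = 0.0475) and 0.08 with 10 nM. The list had 3 lower calls in place of 4 under the DESeq2 Wald test, with upper quartile factors, with no normalization factors, with a filter of 3 RPKM and without any 1 of the 4 libraries at 0 or 100 nM. Timp1, a protease inhibitor gene, rose from 130 and 94 counts to 172 and 181 (0.63, edgeR adjusted p = 0.00462), and that call was lost without 0 nM replicate 2 (0.38, edgeR adjusted p = 0.161) and with normalization factors from all genes (0.55, edgeR adjusted p = 0.0115). Without 0 nM replicate 2 the list had 3 calls in place of 5. Other targets did not pass, among them Ccnd1 (0.17, edgeR adjusted p = 0.0736) and Hmox1 (-0.08, edgeR adjusted p = 0.552). Vim was higher by less than the fold minimum (0.41, edgeR adjusted p = 4.17e-05). Over the dose order 2 tested targets had a rising and 3 a falling trend, against 29.3% of all tested genes with a trend. The collagenase gene Mmp13 had 0 and 0 counts without dTAG13 and 2 and 3 with 100 nM, both at or under the floor of 3 counts.

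**Figure D4:**
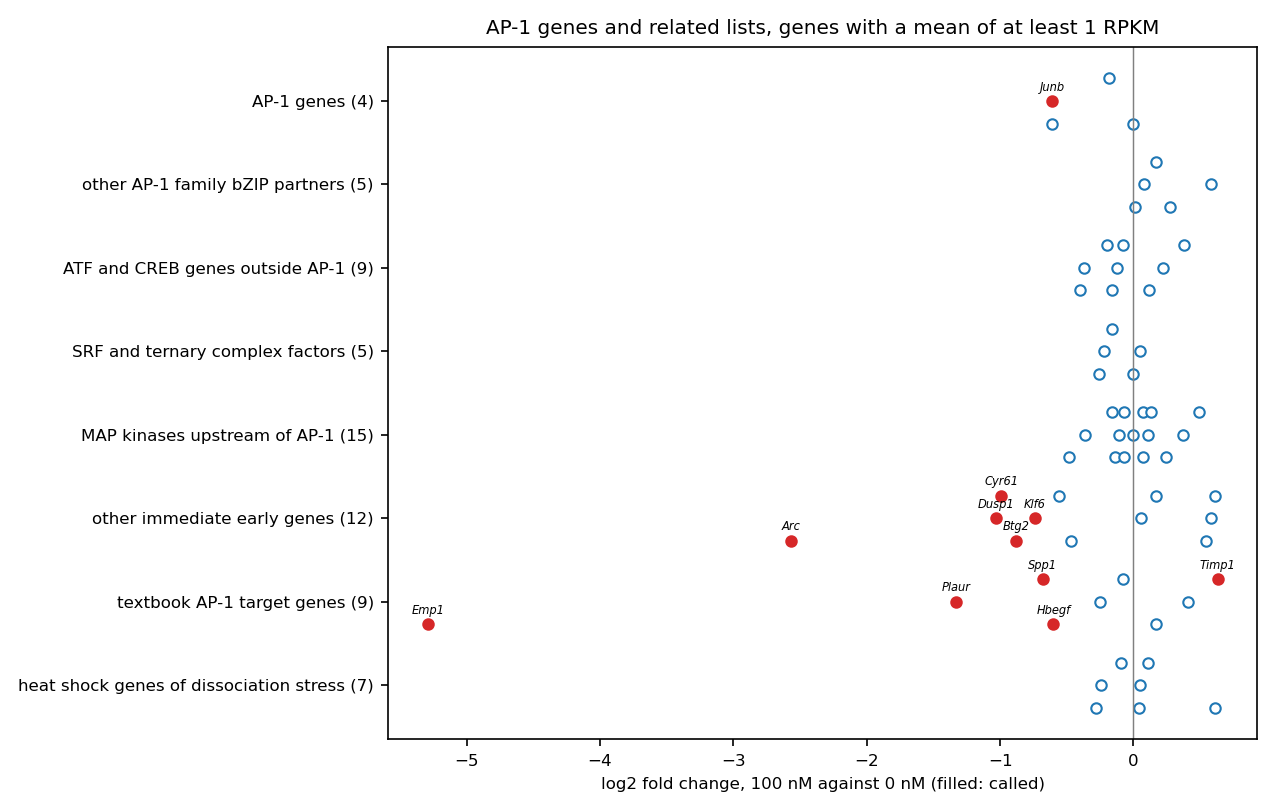
Log2 fold change at 100 nM against 0 nM (x axis) of each gene with a mean of at least 1 RPKM in the AP-1 genes and 7 related lists (rows, with the number of genes tested in brackets). Filled red points are the genes called and named, and the vertical position within a row has no meaning. Junb is the 1 filled point among the AP-1 genes, 5 immediate early genes are filled on the left, and the Emp1 point is a fitted value from 2 and 3 counts.

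Within 100 kb of a member lay 70 other genes, of which 56 were tested. At 100 nM 1 was called higher and 2 lower, while 4.36% of all tested genes were called higher and 6.83% lower. At that background these counts are not a result about the neighbours. Of the 20 around Junb 18 were tested and 1 was called, Dnase2a at -0.84 (edgeR adjusted p = 5.42e-05). Prdx2, the nearest, 2596 bases away, was at -0.09 (edgeR adjusted p = 0.419). Around Jund 11 of 14 were tested, and Ifi30 was lower (-1.06, edgeR adjusted p = 0.00105) and 2010320M18Rik higher (0.84, edgeR adjusted p = 0.0172). These 3 genes are named because the count was small, after their values were seen. Around Fos, Fosb, Fosl1, Fosl2, Jun and Atf3 no neighbour was called.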

How the data were processed

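The 12 libraries were made with the SMART-Seq Stranded Kit. According to the labels and the study's methods, the authors trimmed reads with Trim Galore, aligned them to mm10 with HISAT2 and counted them with featureCounts. The deposited values are raw counts per gene, and the file header shows pairs counted over exons without strand, with reads on several genes left out. The deposited exon lengths gave RPKM with TMM factors (0.954 to 1.06) from the tested genes.

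Tests used edgeR 4.0.16 (glmQLFit and glmQLFTest) in R 4.3.3. All 6 doses were fitted together on the 11378 genes that averaged 1 RPKM or more, or on the 23204 genes with a count for members below that. A call needed an adjusted p under 0.05 and a 1.5-fold change. The likelihood ratio test of the study's methods was run as an alternative, as were DESeq2 1.42.0, other normalization factors, other filters, fits without each library in turn and a replicate block. Groups came from sample titles. Replicate libraries differed by more than sampling noise in counts scaled by their totals alone, with Rn45s included. Their chi-square over genes was 2.03 to 18 times its degrees of freedom. The 18 was at 3 nM, where Rn45s took 10.5% and 19% of counts. The 2.03 was at 0.3 nM, where it took 15.9% and 16.2%. The part of Rn45s in these values was not separated. Deviations of same-numbered libraries correlated at -0.0949 to 0.0926 over 15 pairs of doses, with 0 above 0.1. No pairing by number was thus seen over all tested genes together, and a pairing that touches only some genes could be missed.

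The members and lists were chosen with earlier results of these data known. The text names all 8 members, up to 4 called genes of each list by size of change at 100 nM, and the 3 genes most like each tested member. Other genes of the lists that are named were chosen after their values were seen. Intervals on few counts cover counting error only. Protein sequences were not used here, and 1 gene of the target list is not reported here.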

Additional observations from a re-analysis of the deposited data

How the results depend on the processing

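Of the counts of members called, those at 0.3 and 1 nM, at 100 against 10 nM and over the dose order were the same under every alternative run. The count of 1 at 100 nM became 0 with no normalization factors, and ranged from 0 to 1 with 1 library left out, being 0 without 0 nM replicate 1 or 100 nM replicate 2. The count of 0 at 10 nM became 1 with no fold-change minimum, Junb. The count of 0 at 10 against 1 nM became 1 under the likelihood ratio test, Atf3. With 1 library left out, the counts at 3 nM and at 3 against 0.3 nM ranged from 0 to 1, being 1 without 3 nM replicate 1. In all these fits Junb stayed lower at 100 nM.

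Directions that turned at 100 nM belonged to members that were not called. With 1 library left out, Atf3 ranged from -0.13 (without 0 nM replicate 1) to 0.51, Fos from -0.54 to 0.11 (without 100 nM replicate 1), Fosb from -0.33 (without 100 nM replicate 1) to 5.29 (a fit against a 0 nM library with 0 counts, which gives no bound), and Fosl2 from -1.39 to 0.25 (without 0 nM replicate 2), with 0.06 when 100 nM replicate 2 was left out. The cause was not tested. The replicate block left all 9 counts of members as they were, with Junb at -0.61 and an edgeR adjusted p of 0.00727.

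Of all tested genes, 496 were called higher and 777 lower at 100 nM, against 383 and 957 with TMM factors from all genes, chosen after seeing the data, 956 and 866 with no filter on low values and 1143 and 1516 with no fold minimum. The factors from all genes moved Junb to -0.69 and Jund to -0.08. With no fold minimum 9 immediate early genes were past the threshold in place of 5. The members below 1 RPKM had 0 to 19 counts in a library, which limits what could be detected for them.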

Other observations

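Below the filter on low values, 4 genes of the lists were past both thresholds at 100 nM in the fit of all genes with a count, chosen after their values were seen. Elk3, which encodes a ternary complex factor, had 35 and 23 counts without dTAG13 and 6 and 21 with 100 nM, and Ier5, an immediate early gene, had 22 and 27 and then 11 and 10. Ptgs2, which encodes cyclooxygenase 2 and is a textbook AP-1 target, had 7 and 11 counts without dTAG13 and 34 and 24 with 100 nM (log2 fold change 1.65, edgeR adjusted p = 0.00103). The fourth was Pdgfra, whose values stand with the primitive endoderm markers above. In that fit 7.85% of all genes were called in this comparison.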
